A study of Mus musculus with 4 samples.

Results

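Matrix metalloproteinases (Mmp genes), ADAMTS proteases (Adamts genes) and their tissue inhibitors (Timp genes) were examined in cultured mouse muscle cells. The members were all protein coding genes whose symbol is Mmp, Adamts or Timp followed by digits and at most 1 trailing letter. This gave 46 of the 45777 genes in the deposited table, namely 23 Mmp, 19 Adamts and 4 Timp genes. The rule used names only and no measured value.

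The study sequenced poly(A) RNA of C2C12 myotubes, multinucleate fibres made by serum-starving a mouse myoblast line, to compare 2 models of exercise in a dish. There were 4 groups with 1 library each: cells given clenbuterol, a β2-adrenergic agonist that raises cyclic AMP, their control, cells under EPS and a control for EPS. EPS is read as electrical pulse stimulation, which makes myotubes contract, since no label expands the abbreviation. All 4 groups share the cell line and a medium of DMEM with 2% horse serum, and the treatment field gives 30 ng/ml clenbuterol for every library, controls included, so groups were taken from the titles. For duration, pulse settings, passage and the number of dishes behind a library, no value was at hand.

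Within the EPS pair, titles and data names contradict each other: the record with the title EPS carries data named for the control, and the reverse. The titles were followed, "titled EPS" and "titled EPS control" name those libraries, and each EPS direction turns round should the data names be right. As every group holds 1 library, conditions were not tested against each other. Differences are described by their size, and the 95% intervals hold counting error alone, with nothing of how far cultures vary.

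The libraries held 32640884 to 35597074 estimated counts. The members took 170230 to 184268 of these. Defining myotube genes were present, with all 12 fixed markers at 1 TPM (a length-scaled measure of transcript abundance) or more. Of 8 endothelial markers 0 reached 1 TPM, and of 8 macrophage markers 2 did (Cd14 and Cd68), while Ptprc and Adgre1 had 0 counts everywhere.

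These proteins remodel the matrix outside cells. MMPs are zinc proteases made as inactive precursors. A cysteine in the propeptide blocks the zinc until it is removed, and some members stay anchored in the membrane while others are secreted. ADAMTS enzymes share that kind of catalytic domain but carry thrombospondin repeats and act on proteoglycans, procollagens and microfibril proteins. TIMPs sit in the active site of the protease. In muscle this system clears matrix around satellite cells and fusing myoblasts, and regeneration and exercise are known settings for it.

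Inhibitor transcripts outnumbered protease transcripts in every library. Summed over members, Timp genes stood at 2491 TPM with clenbuterol and 2427 in its control, and at 2149 in titled EPS and 2296 in titled EPS control. Mmp genes summed to 932 TPM with clenbuterol, 925 in its control, 1006 in titled EPS and 1054 in titled EPS control, and Adamts genes to 390, 350, 388 and 417 TPM in the same order. The sum of the inhibitors was 1.88, 1.90, 1.54 and 1.56 times that of all the proteases, again in that order. So this ratio hardly differed within a culture pair and was higher in both clenbuterol cultures than in both EPS cultures. The abundant inhibitors did not share this split. Timp2 had a mean of 1266 TPM in the clenbuterol pair and 895 in the EPS pair. Timp1 (814 and 883 TPM) and Timp3 (378 and 444 TPM) were lower in the clenbuterol pair.

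**Figure D1:**
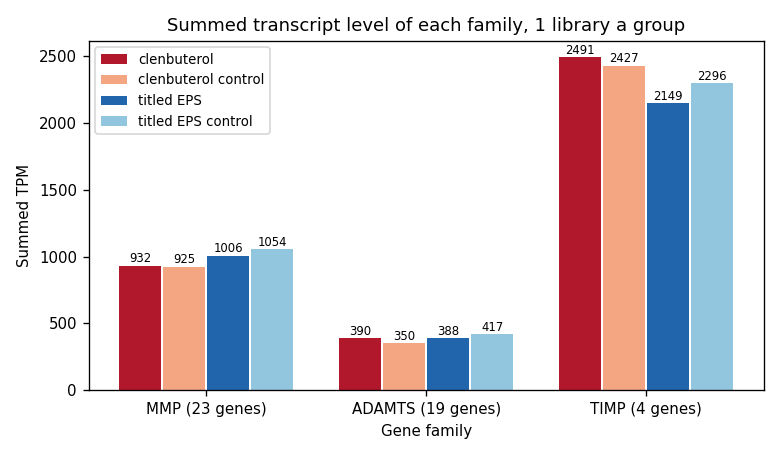
Summed TPM (vertical axis, linear from 0) of the 23 Mmp, 19 Adamts and 4 Timp genes in the 4 libraries, 1 bar per library with no replicate. The Timp bars, 2149 to 2491 TPM, stand above the Mmp bars, 925 to 1054 TPM, and the Adamts bars, 350 to 417 TPM, in every library.

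A few genes carried most of these sums. Of the 46 members, 24 reached 1 TPM in at least 1 library, 21 did so in every library and 5 were above 100 TPM in every library. These 5 were Timp2, Timp1, Timp3, Mmp2 and Mmp14. Mmp2 and Mmp14 together made 81.8% to 85.2% of all Mmp transcripts. By TPM, Timp2 ranked between 85 and 161 and Timp1 between 139 and 156 among 21949 protein coding genes.

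**Figure D2:**
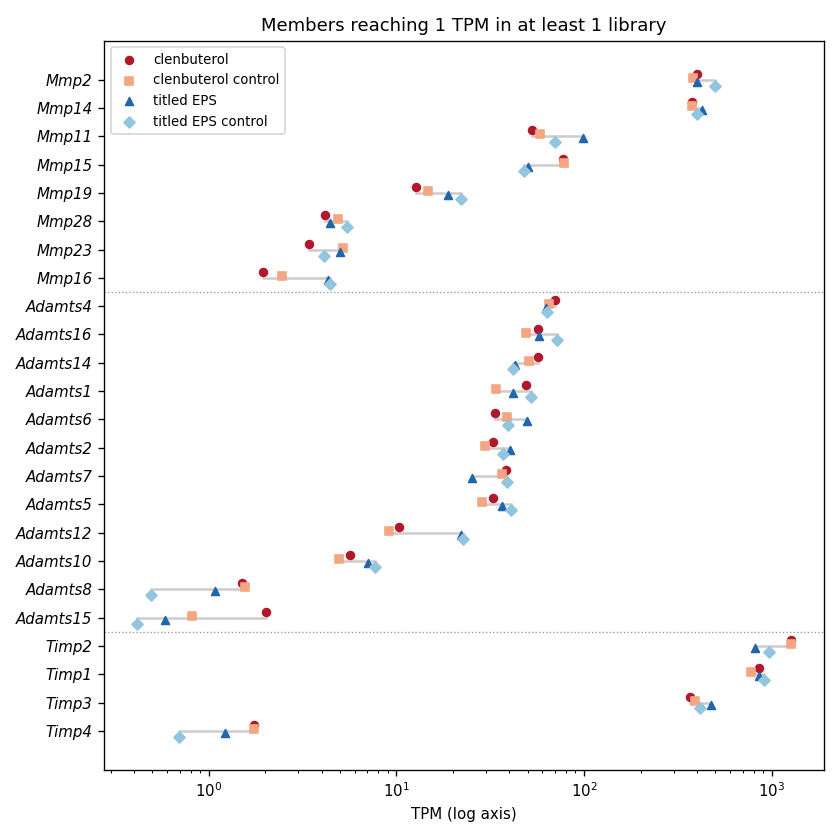
TPM (log axis) of the 24 members that reached 1 TPM in at least 1 library. Each row is a gene, each symbol 1 library, and the grey line runs from the lowest to the highest library. Timp2 (818 to 1267 TPM) is the highest row, and Adamts15, Adamts8 and Timp4 are spread widest at the low end.

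Among the inhibitors, Timp2 also has a second role: at the cell surface it joins the membrane protease MMP14 to the precursor of MMP2, the gelatinase that MMP14 then activates. All 3 genes of this axis were abundant. Timp2 stood at 1267 TPM with clenbuterol and 1265 in its control, and at 818 TPM in titled EPS and 971 in titled EPS control. Mmp14 was the steadiest of them, at 378 TPM in both clenbuterol cultures, 424 in titled EPS and 401 in titled EPS control. Mmp2 stood at 399, 381, 399 and 497 TPM in that order. Titled EPS control was thus the high library for Mmp2 and both clenbuterol cultures were the high ones for Timp2.

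Timp1, which inhibits most secreted MMPs but membrane-type ones poorly, had 855 TPM with clenbuterol and 773 in its control, and 855 in titled EPS and 911 in titled EPS control. Timp3 binds to matrix and also blocks ADAMTS enzymes. It had 368 TPM with clenbuterol and 388 in its control, and 474 in titled EPS and 414 in titled EPS control. Timp4, an inhibitor known from heart and muscle, was far rarer at 1.75 and 1.73 TPM in clenbuterol and its control and 1.22 and 0.692 TPM in titled EPS and titled EPS control. The first 3 were therefore abundant and Timp4 was close to the limit of 1 TPM. Timp1 lies inside Syn1 on mm10 chrX:20870166-20874737, Timp3 inside Syn3 on chr10:86300412-86349505 and Timp4 inside Syn2 on chr6:115244444-115252205, each on the opposite strand to its host. Whether the counting used strand is not stated. Syn2 had 2.23 to 3.62 TPM and was thus above Timp4 in every library, so Timp4 is uncertain, while Syn1 had at most 16.8 TPM and Syn3 at most 0.0444 TPM.

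Beyond Mmp2 and Mmp14, 6 Mmp genes reached 1 TPM. Mmp11, a secreted protease that furin-type enzymes activate inside the cell, stood at 53.1 TPM with clenbuterol and 58.4 in its control, and at 98.5 in titled EPS and 70.1 in titled EPS control. Mmp15, a membrane-anchored relative of Mmp14, stood at 77.3 and 78.4 TPM in clenbuterol and its control and 50.1 and 47.8 TPM in titled EPS and titled EPS control. Mmp19 ran from 12.7 to 22.1 TPM over the 4 libraries and overlaps Tmem198b (14.2 to 19.9 TPM) on the other strand, so its level is uncertain. Mmp28 (4.17 to 5.44 TPM), Mmp23 (3.42 to 5.19 TPM) and the membrane-anchored Mmp16 (1.94 to 4.45 TPM) were low. Mmp23 partly overlaps Mib2 on the same strand, which had 18.4 to 25.8 TPM, and the 88 to 128 counts of Mmp23 can hold reads of both.

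The Adamts genes were spread more evenly, with 8 of 19 above 10 TPM in every library and none above 100. Adamts4, Adamts1 and Adamts5 cleave the proteoglycans aggrecan and versican. Adamts4, whose level is uncertain, was the steadiest, at 70.1 TPM with clenbuterol, 65.2 in its control, 62.5 in titled EPS and 63.3 in titled EPS control. Adamts16 ran from 49.1 to 71.4 TPM. Adamts14 and Adamts2, which trim the amino-terminal propeptide of fibrillar procollagens, ran from 41.9 to 56.6 TPM and from 29.8 to 40.3 TPM, while the third such gene, Adamts3, had at most 7 counts. Adamts6 and Adamts10 are tied to fibrillin microfibrils and ran from 33.6 to 49.4 TPM and from 4.92 to 7.71 TPM.

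The remaining 22 members stayed under 1 TPM in every library. Of these, 6 had 0 counts in all 4 libraries, which allows up to 3 counts in each: the collagenases Mmp1a and Mmp1b, the enamel protease Mmp20, Mmp27, the leukocyte protease Mmp25 and Adamts19. Another 11 had counts but fewer than 20 in each library, and 5 reached 20 counts in at least 1 library. Those 5 were Adamts17 (68 to 87 counts), Mmp24 (32 to 40), Mmp17 (12 to 27), Adamts20 (0 to 21) and Mmp9 (0 to 21). The last is the gelatinase of inflammatory cells and activated satellite cells. Counts as low as these fix no order between libraries for most of the 22.

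Of these 22 members, 10 are neighbours. They lie within 427.1 kb on mm10 chr9:7272514-7699585, in the order Mmp13, Mmp12, Mmp1b, Mmp3, Mmp1a, Mmp10, Mmp8, Mmp27, Mmp20 and Mmp7. The cluster holds collagenases, stromelysins, matrilysin and macrophage elastase, the proteases that inflamed fibroblasts and macrophages are known for. Its highest value in any library was 0.666 TPM, for the stromelysin Mmp3 on 18 counts in the clenbuterol control. All 10 genes together had 30 counts with clenbuterol, 50 in its control, 42 in titled EPS and 25 in titled EPS control. Of the 13 Mmp genes elsewhere, 8 reached 1 TPM. The cluster was thus at or near 0 in myotubes under all 4 conditions.

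Promoter sequence is shown for the cluster because textbook control of these genes runs through AP-1, the FOS and JUN factor that binds near their start sites. Sequences are RefSeq promoter windows of build GRCm38.p6, reaching 250 bases before to 50 after a start site, and 32 of the 46 members matched by gene ID. The 14 members without a window could not be searched. They are Mmp2, Mmp9, Mmp16, Mmp17 and Mmp19, and otherwise Adamts genes. The letters TGAGTCA, read on either strand, occurred in windows of 7 of the 10 cluster genes and of 0 of the 22 other members with a window, against 5.2% of 32851 windows of all genes. Here and below a gene counted if any of its windows held the letters, while the share over all genes is per window. The 7 stretches below run from 100 bases before the start site to the last base before it, on the strand of the gene, with the AP-1 letters in capitals.
Mmp13: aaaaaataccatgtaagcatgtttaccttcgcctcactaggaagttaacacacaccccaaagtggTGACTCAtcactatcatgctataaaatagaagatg
Mmp12: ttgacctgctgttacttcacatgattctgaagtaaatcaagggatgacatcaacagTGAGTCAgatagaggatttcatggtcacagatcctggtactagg
Mmp1b: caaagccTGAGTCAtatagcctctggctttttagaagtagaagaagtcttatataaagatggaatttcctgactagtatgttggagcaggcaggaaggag
Mmp3: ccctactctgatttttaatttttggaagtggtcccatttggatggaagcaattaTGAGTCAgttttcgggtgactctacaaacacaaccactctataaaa
Mmp1a: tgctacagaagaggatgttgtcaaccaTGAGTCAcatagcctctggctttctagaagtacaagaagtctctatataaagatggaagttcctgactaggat
Mmp10: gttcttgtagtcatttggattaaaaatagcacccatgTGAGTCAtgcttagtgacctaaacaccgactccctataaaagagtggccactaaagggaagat
Mmp7: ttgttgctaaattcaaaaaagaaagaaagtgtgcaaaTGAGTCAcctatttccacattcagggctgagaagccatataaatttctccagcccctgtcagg
In this order they cover chr9:7272414-7272513, chr9:7347274-7347373, chr9:7388027-7388126 (minus strand), chr9:7445722-7445821, chr9:7464041-7464140, chr9:7502242-7502341 and chr9:7691990-7692089. Counted from the start site, the first base of the letters lay between -93 (Mmp1b) and -35 (Mmp13). The Mmp12 stretch belongs to the second of its 2 annotated start sites, and the window of the first lacked the letters.

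The same windows differed in base composition. GC content of the 10 cluster windows, 1 per gene, had a median of 41.4% (37.7% to 46.7%), against 64.7% (53.3% to 77.3%) in the 13 matched members that reached 1 TPM and 52.7% over all windows. The 9 matched members under 1 TPM outside the cluster had a median of 66.0% (54.3% to 80.0%), as high as that of the expressed ones. The letters TATAAA occurred in windows of 9 of the 10 cluster genes, of 2 of the 22 others and in 13.6% of all windows. Mmp12 counted only through the window of its second start site, where the letters lay at bases 5 to 10 after the start. For contrast, the 100 bases before the start sites of Mmp14 (chr14:54431498-54431597) and Timp2 (chr11:118355412-118355511, minus strand) held neither set of letters.
Mmp14: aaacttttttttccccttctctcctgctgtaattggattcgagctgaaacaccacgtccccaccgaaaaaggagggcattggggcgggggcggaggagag
Timp2: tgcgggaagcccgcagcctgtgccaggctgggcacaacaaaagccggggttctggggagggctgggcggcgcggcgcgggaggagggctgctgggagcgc
A match of letters is a description of the window and shows no binding.

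**Figure D3:**
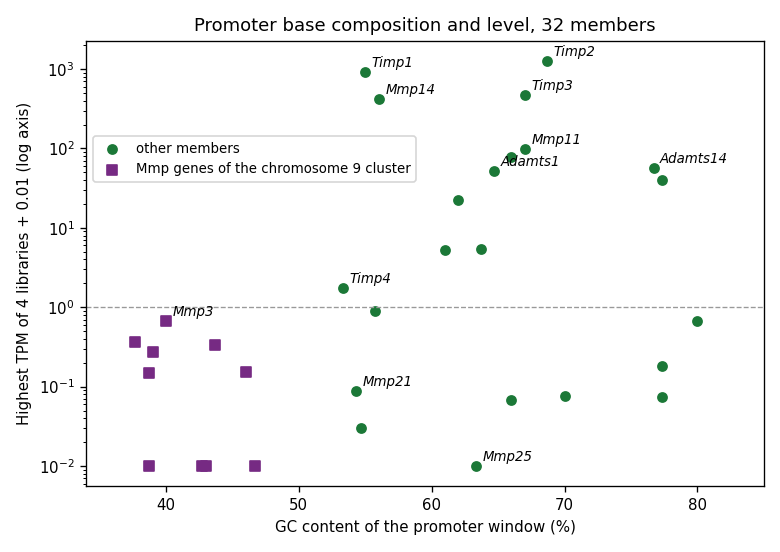
GC content of the promoter window (horizontal axis, percent, 1 window per gene) against the highest TPM of the 4 libraries plus 0.01 (vertical axis, log) for the 32 matched members, each point a gene. The 10 cluster genes (squares) sit between 37.7% and 46.7% GC and under the dashed line at 1 TPM, and the other members (circles) sit at 53.3% GC or more on both sides of the line.

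Clenbuterol was compared with its own control first. Most members differed little: 0 of the 24 that passed the level filter (1 TPM in at least 1 library of the pair) were 2-fold higher or lower in TPM plus 1, against 1.0% higher and 0.515% lower among all 13788 genes that passed it. At 1.5-fold, 1 member was higher, Adamts15 (2.52% of all genes), and 0 were lower (1.92% of all genes). Of the 24, 21 lay within 1.2-fold either way, as did 83.6% of all genes. Their median absolute log2 ratio was 0.15, above the 0.09 over all 14213 genes at 1 TPM in any library. Folds below are ratios of CPM (counts over TMM-scaled totals) with the 95% counting interval.

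Adamts15, a proteoglycanase that cleaves versican, was the member furthest apart. It had 172 counts with clenbuterol and 71 in its control, and 55 in titled EPS and 35 in titled EPS control. In TPM these were 2.03, 0.813, 0.584 and 0.414, so the clenbuterol culture stood above the other 3 libraries. The CPM fold of clenbuterol over its control was 2.49 (1.88 to 3.34). The ratio of TPM plus 1 was 1.67, and the gene passed the level filter only through the clenbuterol library. Of 27 members with at least 20 counts in a library of the pair, it was the single one with a CPM fold past 1.5, against 3.51% of all genes higher and 3.32% lower, and past 2, against 1.49% higher and 1.18% lower. Mmp9, with 0 counts in the control, is given below against a floor of counts.

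Adamts8 is the neighbour of Adamts15, and the pair stands head to head on chr9 with 20.1 kb between them, Adamts15 on the minus strand at chr9:30899155-30922452 and Adamts8 on the plus strand at chr9:30942562-30963838. Adamts8 had 100 counts with clenbuterol and 105 in its control, a fold of 0.980 (0.738 to 1.301). The interval of Adamts8 thus lay below that of Adamts15, on the same pair of libraries.

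Adamts1, an early-response proteoglycanase that also restrains angiogenesis, came next. Its TPM was 49.1 with clenbuterol and 33.9 in its control, and 41.6 in titled EPS and 52.2 in titled EPS control. The clenbuterol control was the lowest of the 4 libraries, and titled EPS control stood above the clenbuterol culture. On 3437 counts with clenbuterol and 2406 in the control the fold was 1.47 (1.40 to 1.55), just under 1.5. Adamts5 lies 55.0 kb from Adamts1 on chromosome 16 on the same strand, and its fold was 1.16 (1.10 to 1.21). The promoter of Adamts1 is shown because TGACG, the core of the cyclic AMP response element, lies in it.
Adamts1: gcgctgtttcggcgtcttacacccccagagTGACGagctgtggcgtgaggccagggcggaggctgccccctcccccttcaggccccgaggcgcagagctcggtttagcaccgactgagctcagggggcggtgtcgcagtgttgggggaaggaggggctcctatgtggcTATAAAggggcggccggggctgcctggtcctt
This stretch is chr16:85803114-85803313 on the minus strand, the 200 bases before the start site, with TGACG and TATAAA in capitals. TGACG on either strand occurred in windows of 5 of 32 members (Adamts1, Adamts12, Adamts3, Adamts9 and Timp1) and in 20.8% of all windows. Adamts15, Adamts8, Adamts5, Adamts16 and Adamts10 are among the 14 members without a window, so nothing is known here of their letters. Whether TGACG plays a part in the Adamts1 values was not tested. The full element TGACGTCA, which contains TGACG, occurred in 0 of 32 members and 1.79% of all windows, and the NF-κB motif in 0 of 32 and 0.411%.

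Other Adamts genes leaned the same way by small amounts. With clenbuterol, 10 of the 12 Adamts genes past the filter had a ratio above 1 in TPM plus 1 and in every other scaling tried. Adamts15, among these 10, passed the filter only through the clenbuterol library. The median log2 ratio of all genes ran only from -0.022 to 0.008 over the settings, so the scalings are no separate check of the sign. Over all members 15 were above 1 and 9 below (12 and 12 by library totals, 13 and 11 in FPKM), against 46.4% of all genes above and 53.6% below. Adamts16 had a fold of 1.16 (1.11 to 1.22), Adamts12 of 1.14 (1.05 to 1.24), Adamts14 of 1.13 (1.08 to 1.18) and Adamts10 of 1.21 (1.03 to 1.42). Adamts6 stood on the other side at 0.898 (0.860 to 0.938). Among these, Adamts12 cleaves cartilage oligomeric matrix protein.

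Most Mmp genes lay below 1. Of 8 past the filter 2 were above 1 in TPM plus 1 (1 by library totals or FPKM, 3 by TMM or median-of-ratios CPM). Mmp16 had a fold of 0.786 (0.666 to 0.926), Mmp19 of 0.872 (0.781 to 0.972) and Mmp11 of 0.907 (0.848 to 0.969). Mmp23 had the lowest ratio of TPM plus 1 among members, 0.715, but its CPM fold was 0.788 with an interval that reached 1.05. Mmp14 had a fold of 1.015 (0.996 to 1.035), Mmp15 of 1.00 (0.961 to 1.04), and Mmp2 of 1.06 (1.04 to 1.09).

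The inhibitors were nearly equal in clenbuterol and its control. Timp2 had a fold of 1.02 (1.005 to 1.03), Timp3 of 0.961 (0.944 to 0.978) and Timp1 of 1.12 (1.09 to 1.15). Timp4 had 74 and 75 counts and a fold of 1.015 (0.727 to 1.42). The Timp1 fold was the furthest from 1. By library totals Timp2 and Timp4 lay just below 1, and in FPKM Timp2 did.

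**Figure D4:**
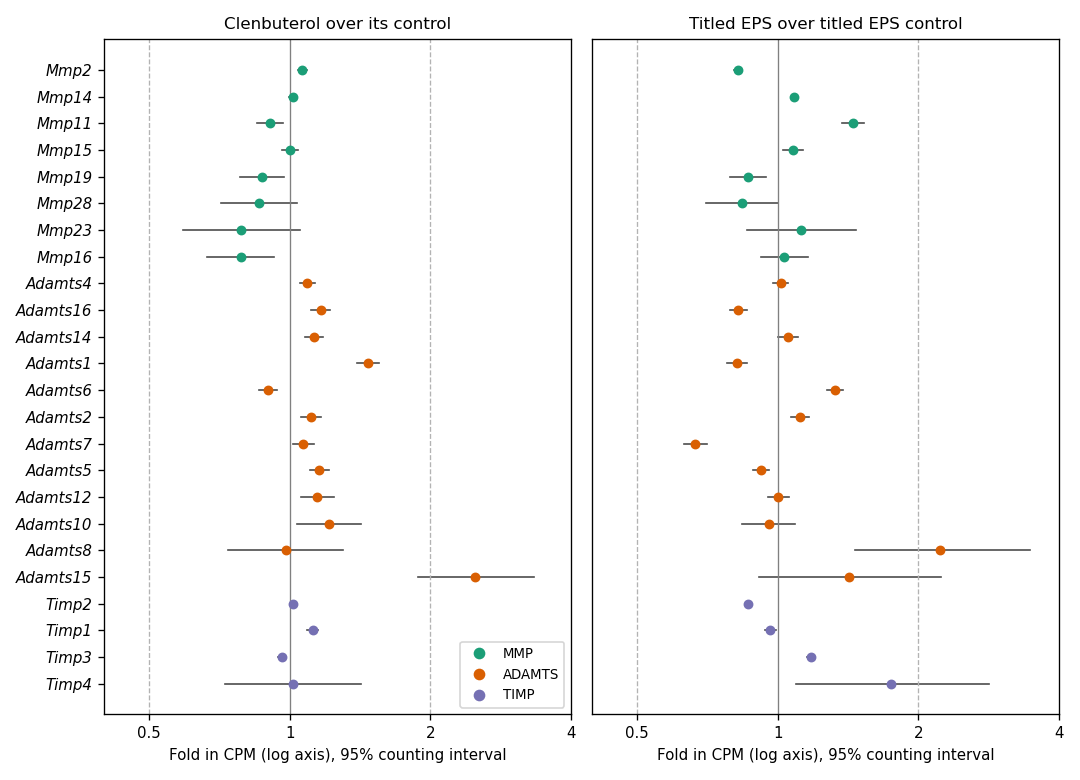
CPM fold (log axis) of clenbuterol over its control (left) and of titled EPS over titled EPS control (right) for the 24 members that reached 1 TPM, with bars for the 95% counting interval and dashed lines at 0.5 and 2. On the left Adamts15 at 2.49 stands apart, and on the right Adamts8 at 2.23 is the highest and Adamts7 at 0.666 the lowest.

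The library titled EPS was then compared with the library titled EPS control, with directions by title. Again 0 of the 23 members past the filter were 2-fold higher or lower in TPM plus 1, against 0.868% higher and 1.14% lower among all 13828 genes. At 1.5-fold 0 were higher (2.34% of all genes) and 1 was lower, Adamts7 (4.24% of all genes). Of the 23, 15 lay within 1.2-fold either way, as did 72.5% of all genes. Markers of the cell state also differed within this pair: 4 of 12 myotube markers were 1.5-fold lower in titled EPS, and the median of the list was -0.495 in log2 of TPM plus 1. Of 8 myoblast markers 2 were 1.5-fold higher, Id1 and Id2, with a median of 0.35, while Pax7 had 0.571 TPM in titled EPS and 1.09 in titled EPS control. The part of these markers in the member values that follow was not tested. The split above and below 1 was 10 and 13 members in TPM plus 1, but 13 and 10 in CPM under each scaling and in FPKM, against 45.4% of all genes above 1 and 54.6% below in TPM plus 1.

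Adamts7, which cleaves cartilage oligomeric matrix protein, was the lowest. It had 25.1 TPM in titled EPS and 38.7 in titled EPS control, and 38.4 with clenbuterol and 36.5 in its control. The library titled EPS was therefore below the other 3, which lay close together. On 2074 counts against 2811 the CPM fold was 0.666 (0.629 to 0.705). Its close relative Adamts12 had a fold of 1.00 (0.951 to 1.06).

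Mmp11 was at the other end. Its 98.5 TPM in titled EPS stood above the 70.1 TPM in titled EPS control and above the 53.1 and 58.4 TPM of clenbuterol and its control. The fold was 1.45 (1.37 to 1.53) on 3444 and 2146 counts. Adamts6 followed with 49.4 TPM in titled EPS and 39.5 in titled EPS control, a fold of 1.33 (1.28 to 1.38). Both were highest of the 4 libraries in titled EPS.

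Several abundant members were lower by title. Mmp2 had a fold of 0.823 (0.807 to 0.839), Adamts1 of 0.818 (0.779 to 0.858), Adamts16 of 0.823 (0.790 to 0.857) and Timp2 of 0.865 (0.854 to 0.876). Timp3 stood on the other side at 1.18 (1.16 to 1.195). Mmp14 was at 1.085 (1.065 to 1.105) and Mmp15 at 1.08 (1.02 to 1.13). The partners Mmp2, Timp2 and Mmp14 thus did not share a direction within this pair.

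Rare members gave the widest folds, on few counts. Adamts8 had 79 counts in titled EPS and 32 in titled EPS control, a fold of 2.23 (1.46 to 3.47). Timp4 had 56 and 29 counts and a fold of 1.74 (1.09 to 2.83), and Adamts15 had 55 and 35 and a fold of 1.42 (0.912 to 2.23). All 3 were lowest of the 4 libraries in titled EPS control. Timp4 and Adamts8 passed the level filter only through the library titled EPS. Mmp17, a membrane-anchored protease, had 12 counts in titled EPS and 27 in titled EPS control, a fold of 0.401 (0.185 to 0.819). Mmp9 had 0 counts in titled EPS and 21 in titled EPS control, 7.76-fold lower when the 0 is set to a floor of 3 counts. It also had 12 counts with clenbuterol and 0 in its control, 4.12-fold higher against the same floor. Both Mmp9 values leave out the counting error of the higher library. Among 29 members with at least 20 counts in a library of the EPS pair, 2 were at least 1.5-fold higher in CPM, Adamts8 and Timp4 (4.25% of all genes), and 3 lower, Mmp9, Mmp17 and Adamts7 (5.72% of all genes). At 2-fold these were 1 higher, Adamts8 (1.68% of all genes), and 2 lower, Mmp9 and Mmp17 (2.23%).

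The members, like all genes, differed more between the culture pairs than within either. Over the 24 members at 1 TPM in any library, the median absolute log2 ratio was 0.32 between the pair means (clenbuterol pair over EPS pair), 0.15 within the clenbuterol pair and 0.21 within the EPS pair, against 0.19, 0.09 and 0.15 over all 14213 such genes. This comparison was added after the values were seen, and treatment, control and culture batch cannot be told apart in it. Both clenbuterol cultures lay above both EPS cultures for 7 of the 24 (25.1% of all genes) and below them for 12 (34.7%). At a gap of at least 1.5-fold in TPM plus 1 between the nearest libraries, 1 member was above, Mmp15 (1.45% of all genes), and 2 were below, Mmp16 and Adamts12 (1.84%). At 2-fold 0 were above (0.204%) and 1 was below, Adamts12 (0.352%).

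Adamts12 was the widest. It had 10.3 TPM with clenbuterol and 9.15 in its control, and 22.2 TPM in titled EPS and 22.7 in titled EPS control, so the pair means were 2.18-fold apart in TPM plus 1. Mmp16 had 1.94 and 2.45 TPM in the clenbuterol pair and 4.34 and 4.45 TPM in the EPS pair. Mmp15 and Timp2 went the other way, with pair means 1.58-fold and 1.42-fold higher in the clenbuterol pair. Each of these 4 gaps was wider than the difference inside either pair. They do not depend on which EPS title is right.

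Most myotube markers and some myoblast and fibroblast markers moved with this split. The 12 myotube markers summed to 31830 and 31820 TPM in clenbuterol and its control and to 21710 and 25980 TPM in titled EPS and titled EPS control. Acta1 overlapped between the pairs, with 8891 and 8270 TPM in clenbuterol and its control. It was lower in titled EPS, at 5723 TPM, and higher in titled EPS control, at 9090 TPM. The 8 myoblast markers summed to 914 and 800 TPM in clenbuterol and its control. In titled EPS and titled EPS control they summed to 631 and 493 TPM. Myf5 went the other way, at 4.19, 4.86, 7.76 and 5.67 TPM in the same order, and some others overlapped between the pairs. The 8 fibroblast markers, of which 6 reached 1 TPM and Thy1 had 0 counts, summed to 1358 and 1295 TPM in the clenbuterol pair and 2167 and 2078 TPM in the EPS pair. Col1a1, at 642, 573, 1198 and 1164 TPM in that order, and Postn, at 400, 408, 604 and 576 TPM, carried this difference. Pdgfra went the other way, at 4.33 and 4.31 TPM in the clenbuterol pair and 3.46 and 4.07 TPM in the EPS pair, and Dcn hardly differed. Fewer cells of a kind and less RNA per cell cannot be told apart in such bulk samples. The part of these markers in the member differences was not tested.

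**Figure D5:**
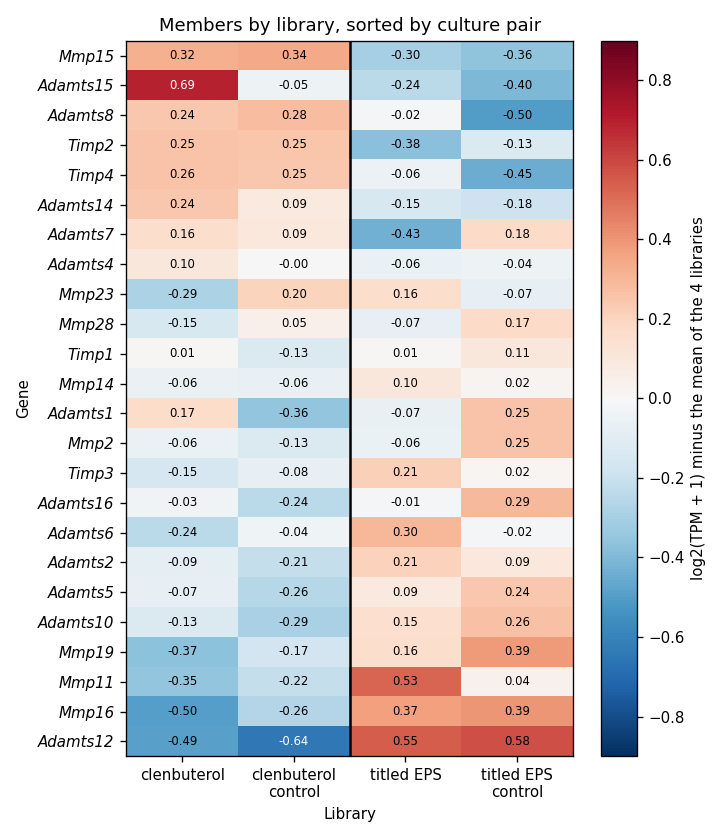
log2(TPM + 1) minus the mean of the 4 libraries for the 24 members (rows) in each library (columns), with the values printed and a line between the culture pairs. Adamts12 runs at -0.49 and -0.64 in the clenbuterol pair and 0.55 and 0.58 in the EPS pair, and Adamts15 stands out in the clenbuterol column at 0.69.

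Genes that activate or restrain these proteases were set beside them, from a list of 24. Counts in this and the other lists are in TPM plus 1. With clenbuterol, 1 of 16 past the filter was 2-fold higher (1.0% of all genes) and 0 were lower (0.515%). This was Plaur, the receptor that holds urokinase at the cell surface, with 37.2 TPM against 13.8 in the control and a fold of 2.67 (2.34 to 3.05). Plau, urokinase itself, had 233 and 155 TPM and a fold of 1.52 (1.47 to 1.58). By title, Plau was also the single gene of this list 2-fold higher in titled EPS (0.868% of all genes), at 148 TPM against 66.7 in titled EPS control. Reck, a membrane-anchored inhibitor of MMPs, had folds of 0.885 (0.712 to 1.10) with clenbuterol and 1.195 (0.982 to 1.46) by title, at 2.46 to 3.39 TPM.

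Related proteases differed by title in a few genes. Of 7 ADAM sheddases past the filter 0 were 1.5-fold apart with clenbuterol, and by title 1 was 2-fold lower (1.14% of all genes), Adam8, at 5.55 TPM in titled EPS and 14.1 in titled EPS control (fold 0.398, 0.344 to 0.459). Of 6 ADAMTS-like genes, which lack the protease domain, 0 were 1.5-fold apart with clenbuterol and 2 were lower by title (4.24% of all genes): Adamtsl2 (fold 0.573, 0.516 to 0.636) and Adamtsl4 (0.625, 0.574 to 0.680). Astacin, serine and cathepsin matrix proteases had 0 genes 1.5-fold apart in TPM plus 1, out of 5 with clenbuterol and 6 by title. In CPM the tolloid protease gene Tll1, at 1.18 TPM in titled EPS and 0.666 in titled EPS control, had a fold of 1.805 (1.31 to 2.52). Ctsl, a lysosomal cathepsin gene, had 672 TPM in titled EPS and 518 in titled EPS control.

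Several substrates of these enzymes were abundant. Of 12 proteoglycan and glycoprotein substrates past the filter, 0 were 1.5-fold apart with clenbuterol (2.52% of all genes higher and 1.92% lower). By title 1 was higher (2.34% of all genes), Thbs2, at 182 TPM in titled EPS and 118 in titled EPS control. Vcan, the versican that Adamts1, Adamts4, Adamts5 and Adamts15 cleave, stood at 142 TPM with clenbuterol and 131 in its control, and at 232.8 in titled EPS and 195.8 in titled EPS control. Acan, the other main substrate of this group, had 0 counts in all 4 libraries. Of these substrates versican was thus present and aggrecan was not detected. Comp, the gene of the cartilage oligomeric matrix protein that Adamts7 and Adamts12 cleave, had at most 0.115 TPM in any library.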

How the data were processed

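Each library was poly(A) RNA of C2C12 myotubes prepared with a strand-specific TruSeq kit, per the labels' protocols. Reads were aligned with HISAT2 to mm10, per the submitters' processing notes. Counter, strand setting and annotation release were not given in the sources used here. In 1 joint table the authors deposited estimated counts, FPKM and TPM per gene, and TPM again in 1 table per library, where 8 further columns (coverage and FPKM) were not used. The tables differed by more than 0.001 TPM in 1 to 3 genes per library and in 0 members.

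From these, log2 ratios of TPM plus 1 were computed over genes with 1 TPM or more in at least 1 library of a pair. CPM folds used TMM factors (edgeR 4.0.16, R 4.3.3) and exact Clopper-Pearson 95% intervals on the estimated counts. Median-of-ratios factors came from DESeq2 1.42.0. Ratio and interval code was tested on simulated data. Python 3.11.15, numpy 2.4.6, pandas 2.3.3, scipy 1.17.1 and matplotlib 3.10.9 did the rest.

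Members at least 1.5-fold apart in TPM plus 1, or in CPM with at least 20 counts in a library, and the 10 with the highest mean TPM were named with values, and other lists could give the 2 genes at each end. Others were named after their values were seen. Members and lists were chosen with earlier results of these data known. Alternatives were 0.1 and 5 as pseudocount, other level filters, other scalings, FPKM and the single tables. Genes at an end of a list or overlapping a member are in part not reported here.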

Additional observations from a re-analysis of the deposited data

How the results depend on the processing

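Alternatives in CPM and FPKM also added a pseudocount of 1. No member was 2-fold apart in TPM plus 1 between clenbuterol and its control, but 1 was, Adamts15, with a pseudocount of 0.1, in CPM with TMM factors and in CPM with median-of-ratios factors. The number was 0 under the other 6 alternatives, and in the EPS pair it was 0 under all 9. The single tables held the same member values, and a level filter of 5 TPM left out Adamts15, Adamts8 and Timp4. Neither of these alternatives could raise the number. In the EPS pair Adamts8 was just short of 2-fold at a pseudocount of 0.1. Its log2 ratio was 0.69 in CPM plus 1 with TMM factors, where its fold of CPM alone was 2.23. The median log2 ratio of members past the filter was 0.04 with clenbuterol and -0.03 by title, beside -0.01 and -0.03 over all genes, and moved by at most 0.1 under every alternative. The number of members with culture pairs at least 1.5-fold apart was 3, and 1 (Adamts12) with a pseudocount of 5 or in FPKM, the cause of the second not tested. This comparison and its alternatives were added after seeing the data. Single log2 ratios were followed where past the filter, for the 10 members highest in mean TPM and for Adamts7, Adamts8, Adamts15 and Timp4. Mmp9 and Mmp17, under 1 TPM, were not followed, nor were other members such as Adamts1, Adamts6, Adamts12 and Mmp16. Of the ratios followed, 3 moved by more than 0.2925 with a pseudocount of 0.1 and 2 with a pseudocount of 5. All were of Adamts15, Adamts8 or Timp4. Under any other alternative 0 moved so far, although Adamts15 came close in FPKM (0.45 against 0.74 with clenbuterol). No paired analysis was possible because each group holds 1 library, and no library could be left out. Depth limits the 22 members under 1 TPM, whose counts are at most 87.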

Other observations

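Sox9, a transcription factor that drives cartilage matrix genes, was the single chondrocyte marker past the level filter in the clenbuterol pair. It stood at 85.8 TPM with clenbuterol and 32.6 TPM in its control, a CPM fold of 2.67 (2.53 to 2.81), and at 27.6 TPM in titled EPS and 24.9 TPM in titled EPS control. The cartilage genes Acan and Col9a1 had 0 counts in all 4 libraries. Id3, an inhibitor of myogenic bHLH factors in the list of myoblast markers, stood at 116 TPM with clenbuterol and 35.9 TPM in its control. Neither gene is a protease or an inhibitor of one.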
